A study of Mus musculus with 10 samples.

Results

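Blood clotting at the vessel wall is held in balance by a small group of genes that endothelial cells themselves express, and 9 of them are described here in lymphatic endothelial cells (LECs) and blood vessel endothelial cells (BECs) of mouse ear skin. The genes are *Vwf*, *Thbd*, *Procr*, *Tfpi*, *F8*, *F3*, *Plat*, *Plau* and *Pros1*. They were listed by name, with earlier results of these data known. The 9 were found among the 46517 genes in the count tables by Ensembl identifier and mouse symbol. Cells, 1 to a well of 384-well plates, were sequenced with Smart-Seq2, a method that reads whole transcripts without molecular identifiers. The 5 mutant mice were Pik3caH1047R;Cdh5-CreERT2 animals with Cre (Cre+) that received 4-hydroxytamoxifen (4-OHT, in acetone) on the dorsal ear at 3 weeks of age and were 5 weeks old when cells were taken. In these mice the recombinase is driven by the pan-endothelial *Cdh5* promoter. Treatment with 4-OHT can thus switch on an activated catalytic subunit of PI3-kinase in both LECs and BECs. Which cells carried the mutant transcript was not examined here, so mutant sums may mix cells with and without it. Control 1 was an untreated C57BL/6J mouse, and control 2 carried the same alleles without Cre (Cre-) and received 4-OHT, both also at 5 weeks. Mutants thus shared 4-OHT with control 2 only, and a further Cre- mouse (control 3) was not analysed here. Mutants 3 and 5 each filled 2 plates, which were added up, so that the mouse was the unit of every comparison.

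Clotting starts when tissue factor (*F3*), the cell surface receptor of factor VII, meets blood, and tissue factor pathway inhibitor (*Tfpi*) blocks that first step. Thrombin bound to thrombomodulin (*Thbd*) activates protein C, which the endothelial protein C receptor (*Procr*) presents to it, and activated protein C together with protein S (*Pros1*) inactivates factors V and VIII. Von Willebrand factor (*Vwf*) tethers platelets and carries factor VIII (*F8*) in blood. Tissue-type (*Plat*) and urokinase-type (*Plau*) plasminogen activators generate plasmin, which dissolves fibrin. Lymph clots poorly compared with blood, and both vessel types line their lumen with anticoagulant proteins.

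The labels call the plates sorted LECs (Podoplanin and CD31, after removal of CD45, CD11b and Ter119 cells), whereas the study's methods name both LECs and BECs as sorted, and the plates held the 2 types in nearly equal number. A cell was taken as a LEC where its summed *Prox1*, *Flt4* and *Mmrn1* reached 300 CPM (the read count of a gene scaled to the same total in every cell or sum) and exceeded the sum of *Flt1*, *Emcn* and *Podxl*, and as a BEC in the reverse case. Of 3248 cells kept, 1641 were LECs (358 from control and 1283 from mutant mice), 1490 were BECs (316 and 1174) and 117 were neither. The 7 LEC markers together stood at 7205–10848 CPM in LECs and 156–681 CPM in BECs, and the 7 BEC markers at 7405–8919 CPM in BECs and 1439–1820 CPM in LECs. These lists include the genes of the rule, so they describe the grouping and do not test it. Just inside the rule, 18 LECs and 66 BECs had a leading sum under 600 CPM, and 1048 LECs and 153 BECs had 300 CPM or more of both sums. No doublet caller was run.

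Plates held 99738886–151102969 reads each, with medians of 219487–424655 reads per kept cell. The summed reads per mouse were 55616045–194353210 in LECs and 38402388–99630824 in BECs. Several things differed between genotypes. Refits without cells carrying markers of other types, without cycling cells and with the plate series as a block are given below. Beyond these refits, the part of these things in the results was not tested. Fibroblast markers (6 genes) summed to 243–455 CPM in control and 26.9–127 CPM in mutant LECs, and to 735–972 and 17.6–70.2 CPM in BECs. Mural markers stood at 505–920 CPM in control and 156–348 CPM in mutant BECs, and at 99.5–139 and 36.2–66.8 CPM in LECs. Platelet markers stood at 8.52–11.3 CPM in control and 15.2–21.5 CPM in mutant BECs, and at 9.14–10.9 and 20.1–56.3 CPM in LECs. Immune markers stood at 21.04 CPM or less in either type. Schwann cell markers reached 111 CPM in control LECs and 147 CPM in control BECs (17.4 and 5.12 CPM at most in mutants), keratinocyte markers overlapped between genotypes in both types, and the 4 pan-endothelial markers stood at 4335–5677 CPM throughout. A list of 8 dissociation genes (*Fos*, *Junb* and others) reached 2108–3599 CPM in control and 641–1651 CPM in mutant LECs, and 3794–3965 and 1221–2393 CPM in BECs. All 7 cycling markers were higher in every mutant than in either control in both types. Plate numbers fell into 2 series, mutants 1–4 in one and mutant 5 with both controls in the other, so that genotype and series largely cannot be told apart.

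In GRCm38 coordinates, as given with GENCODE symbols, the secreted and membrane-bound anticoagulant genes lay at chr2:148404466-148408188 (minus strand, *Thbd*), chr2:155751117-155755471 (plus strand, *Procr*), chr2:84432855-84476775 (minus strand, *Tfpi*) and chr16:62854307-62929346 (plus strand, *Pros1*). The procoagulant genes lay at chr6:125546774-125686679 (plus strand, *Vwf*), chrX:75172715-75382615 (minus strand, *F8*) and chr3:121723537-121735048 (plus strand, *F3*). The plasminogen activators lay at chr8:22757727-22782844 (plus strand, *Plat*) and chr14:20836660-20843385 (plus strand, *Plau*). All 9 are protein coding, and none shared exon sequence with another annotated gene.

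Promoter windows (RefSeq, GRCm38.p6, 250 bases before to 50 after the transcription start) were found for 5 of the 9 genes, and for none of *Vwf*, *Thbd*, *Plat* and *Plau*. The pair that held an AP-1 motif is shown. This motif was picked after *Junb*, the gene of an AP-1 subunit, was seen to be lower in mutants in both cell types. A link between *Junb* and either gene was not tested. The window of *Procr*, the gene with the clearest difference in BECs, is chr2:155750967-155751266 on the plus strand. That of *F3* is chr3:121723287-121723586 on the plus strand. Capitals mark the AP-1 motif TGANTCA, searched on both strands.
Procr: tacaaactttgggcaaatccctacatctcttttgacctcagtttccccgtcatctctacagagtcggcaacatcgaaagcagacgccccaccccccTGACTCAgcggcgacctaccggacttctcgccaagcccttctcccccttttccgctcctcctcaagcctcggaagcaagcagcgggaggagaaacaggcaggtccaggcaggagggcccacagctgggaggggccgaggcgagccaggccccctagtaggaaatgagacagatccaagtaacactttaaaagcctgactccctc
F3: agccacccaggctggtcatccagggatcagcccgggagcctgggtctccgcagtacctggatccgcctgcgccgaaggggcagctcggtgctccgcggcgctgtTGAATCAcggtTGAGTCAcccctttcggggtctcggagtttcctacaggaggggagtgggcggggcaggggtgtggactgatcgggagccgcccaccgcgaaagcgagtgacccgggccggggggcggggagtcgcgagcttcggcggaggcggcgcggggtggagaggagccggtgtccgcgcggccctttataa
*Procr* held 1 match, at bases 97–103 from the left end, which is 154 bases before the start. Both matches of *F3* lay at bases 105–111 and 116–122. Of 32851 promoter windows of the same length, 7.81% held at least 1 AP-1 match. The KLF motif CCACCC, carried by 31.5% of windows, occurred in those of *Procr*, *F3* and *Pros1*. GATAA, the GATA motif (25.4% of windows), occurred in *Pros1* and in both *Tfpi* windows, and no member window held the ETS motif CCGGAA (14.9%). A match describes letters in the window and says nothing of binding.

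*Thbd* and *Procr* had the highest mean levels per kilobase of exon in both vessel types over the 7 mice, and *Vwf* came next in BECs but was among the lowest in LECs. On that scale LECs carried most *Thbd* (151 ± 69.4 CPM per kb, mean ± SD, n = 7 mice), followed by *Procr* (122 ± 49.6), *Pros1* (85.5 ± 11.7), *Plat* (58.8 ± 25.7), *Plau* (46.2 ± 32.5) and *Tfpi* (19.3 ± 2.39). *Vwf*, *F3* and *F8* came last, at 1.54 ± 1.42, 1.51 ± 1.10 and 1.26 ± 0.346 CPM per kb. In BECs *Thbd* (110.5 ± 18.3) and *Procr* (97.1 ± 44.9) again stood first, but *Vwf* came next with 80.1 ± 22.3 CPM per kb, ahead of *Pros1* (57.7 ± 10.2), *Plat* (29.8 ± 7.42), *Plau* (21.9 ± 9.98) and *Tfpi* (11.5 ± 2.25). *F8* (0.607 ± 0.380) and *F3* (0.239 ± 0.508) were lowest. For neighbours in these orders the ranges of mean ± 1 SD overlapped, except between *Tfpi* and *Vwf* in LECs, and between *Pros1* and *Plat* and between *Tfpi* and *F8* in BECs. The orders over 7 mice are largely those of the 5 mutants, and the means of the 2 controls ran otherwise. In control LECs *Pros1* (91.7 CPM per kb) lay above *Procr* (72.5) and *Thbd* (52.9), where mutant LECs had *Thbd* (190 CPM per kb) and *Procr* (141) above *Pros1* (83.1). In control BECs *Thbd* (130 CPM per kb) was followed by *Vwf* (53.7), *Pros1* (47.2) and *Procr* (34.9), and in mutant BECs *Procr* (122 CPM per kb) was followed by *Thbd* (103), *Vwf* (90.6) and *Pros1* (62.0). The exon length of *Plat* given with the counts, 2531 bases, was used here. In the annotation that gave the symbols it is 6241 bases.

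LECs and BECs of the same mouse were compared next, to ask how the 2 vessel types divide these genes. *Vwf* was by far the most uneven of the 9. Controls 1 and 2 had 1031 and 694 CPM of *Vwf* in BECs but 65.9 and 3.66 CPM in LECs. Mutants 1 to 5 had 1850, 1387, 1447, 1278 and 1316 CPM in BECs and 46.5, 16.6, 18.7, 7.003 and 14.7 CPM in LECs. LECs were lower in 7 of 7 mice, at -6.27 on the log2 scale (SE 0.49, adjusted p 2.12e-05, edgeR's quasi-likelihood test with the mouse as block and Benjamini-Hochberg adjustment over all genes), a 77.3-fold difference. Reads of *Vwf* in LECs came from 1343 of 1641 cells, but the 5 cells with most reads supplied 11.6–79.5% of them per mouse, and the 2 plates of mutant 5 differed 3.56-fold in it.

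*Tfpi* and *Pros1* were higher in LECs, while the other anticoagulant members, *Thbd* and *Procr*, did not pass. *Tfpi* stood at 119 and 106 CPM in control LECs and at 79.7, 118, 102, 105 and 107 CPM in mutant LECs. The corresponding BECs had 48.3 and 54.4 CPM in controls and 59.1, 77.0, 65.3, 81.7 and 55.7 CPM in mutants. LECs were thus higher in 7 of 7 mice, by 1.28–2.46-fold (log2 fold change 0.72, SE 0.13, adjusted p 0.0034, edgeR). *Pros1*, the cofactor of activated protein C, stood at 401 and 349 CPM in control LECs against 200 and 185 CPM in control BECs. In mutants it stood at 322, 320, 402, 380 and 273 CPM in LECs against 232, 247, 262, 310 and 215 CPM in BECs. That difference also held in 7 of 7 mice, at 1.23–2.00-fold (log2 fold change 0.54, SE 0.11, adjusted p 0.00556, edgeR).

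*Plat* was higher in LECs of 6 of 7 mice (125 and 60.8 CPM in control LECs, 138, 135, 172, 136 and 275 CPM in mutant LECs). In BECs it stood at 81.8 and 79.6 CPM in controls and at 88.6, 43.5, 94.0, 54.8 and 85.2 CPM in mutants. The log2 fold change was 0.88 (SE 0.24, adjusted p 0.0229, edgeR), and this call was lost without mutant 2, 3, 4 or 5, at log2 fold changes that stayed between 0.75 and 1.09 over all mice left out. In the control mice alone *Plat* gave 0.093 (adjusted p 0.954, edgeR), with control 1 higher and control 2 lower in LECs. *F3* was low everywhere, at 0.766–8.04 CPM in LECs and 0–3.51 CPM in BECs. Its log2 fold change of 4.19 (SE 0.85, adjusted p 0.00595, edgeR) rests on 71 LECs and 34 BECs with a read, and the 5 highest LECs of a mouse supplied 92.8–100% of its reads. Without cycling cells it was 1.81 (adjusted p 0.325, edgeR), and without cells carrying markers of other types 3.36 (adjusted p 0.0565).

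In all, 5 of 9 members passed (4 higher in LECs and 1 lower), where 25.9% of the 17587 genes tested did (35% with DESeq2). The median log2 fold change of the 9 was 0.69, against 0.00 over all genes. *Thbd* (0.26, adjusted p 0.662), *Procr* (0.37, 0.229), *Plau* (0.69, 0.275) and *F8* (1.28, 0.231) did not pass in edgeR. *Thbd* had opposite order in the 2 genotypes. It was lower in LECs (231 and 163 CPM) than in BECs (457 and 509.9 CPM) of both control mice, and higher in LECs than in BECs of every mutant. Fitted on the mutants alone, its log2 fold change was 0.84 (adjusted p 0.00354, edgeR), and on the controls alone -1.33 (adjusted p 0.0855, edgeR). *Plau* gave 1.06 (adjusted p 0.0217) in mutants and -0.51 (adjusted p 0.880) in controls, and 1.06 (adjusted p 0.00914) without control 1, again with edgeR. Control 1 had less *Plau* in LECs than in BECs (5.65 against 24.1 CPM) and control 2 more (33.8 against 15.7 CPM).

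Mutant and control mice were compared in each type to ask whether these genes responded to activated PI3-kinase. In LECs the thrombin receptor *Thbd* stood out. *Thbd* was at 231 and 163 CPM in control LECs and at 675, 649, 745, 626 and 833 CPM in mutant LECs, with no overlap between the groups. The means were 197 ± 48.1 CPM (SD, n = 2) and 706 ± 84.2 CPM (n = 5), and the log2 fold change was 1.88 (SE 0.20, adjusted p 0.00623, edgeR's quasi-likelihood test), or 3.68-fold. It was the single member of 9 to pass in LECs, where 2.76% of 19758 genes passed. The median log2 fold change of the 9 was 0.24, against -0.01 over all genes.

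*Plau*, *Procr* and *Plat* were also higher in every mutant than in both controls of the LECs but did not pass. How many of all genes separated the genotypes in this way was not counted, in LECs or BECs. Such separation can thus not be called particular to these genes. Urokinase (*Plau*) stood at 5.65 and 33.8 CPM in control LECs and at 95.1, 98.8, 145, 145 and 234 CPM in mutant LECs (log2 fold change 2.94, SE 0.70, adjusted p 0.0650, edgeR). The controls stood far apart in it, and without control 2 it passed (4.66, adjusted p 0.0213). *Procr* stood at 104 and 190 CPM in controls and at 326, 196, 239, 257 and 415 CPM in mutants (1.02, SE 0.32, adjusted p 0.129). For *Plat*, given above by mouse, the log2 fold change was 0.91 (SE 0.39, adjusted p 0.239). DESeq2, run as an alternative, called 3 of 9 members and 12.5% of all genes, adding *Plau* (adjusted p 2.73e-06) and *Procr* (0.0140) to *Thbd*.

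The remaining 5 genes of LECs gave log2 fold changes of -0.75 (*Vwf*, adjusted p 0.696), -0.36 (*F8*, 0.612), 0.24 (*F3*, 0.920), -0.09 (*Tfpi*, 0.826) and -0.10 (*Pros1*, 0.807) in edgeR. For *Vwf* the controls themselves, at 65.9 and 3.66 CPM, spanned all 5 mutants. *Pros1* and *Tfpi*, both well measured in LECs, overlapped between the genotypes.

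In BECs the protein C receptor and urokinase were the members that rose, and *Thbd* was not among them. *Procr* stood at 86.7 and 55.2 CPM in control BECs and at 276, 194, 241, 246 and 280 CPM in mutant BECs (71.0 ± 22.2 and 248 ± 34.6 CPM, SD, n = 2 and 5). The log2 fold change was 1.86 (SE 0.23, adjusted p 0.00982, edgeR), or 3.63-fold, and the groups did not overlap. *Plau* rose from 24.1 and 15.7 CPM to 79.6, 54.5, 65.8, 67.1 and 52.4 CPM, 3.34-fold (log2 fold change 1.74, SE 0.28, adjusted p 0.0209, edgeR). In control BECs, however, 5 cells supplied 78.1–95.4% of a mouse's *Plau* reads, against 30.8–71.1% in mutants. These 2 of 9 members passed where 2.12% of 19315 genes did, and the median of the 9 was 0.82 against 0.01 over all genes.

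*Vwf* of BECs was higher in every mutant (1278–1850 CPM) than in both controls (694 and 1031 CPM), at 0.82 on the log2 scale (SE 0.21), but did not pass in edgeR (adjusted p 0.0883). DESeq2 called it (adjusted p 0.00715), along with 11.6% of all genes. *Pros1* (0.45, adjusted p 0.196) and *Tfpi* (0.46, adjusted p 0.280) likewise lay above both controls in all 5 mutants without passing. As in LECs, the share of all genes that did so was not counted. *Thbd* stood at 457 and 510 CPM in control BECs and at 378, 404, 338, 463 and 329 CPM in mutant BECs, and these ranges overlapped (-0.28, adjusted p 0.366). *Plat* (-0.08, adjusted p 0.908), *F8* (1.03, 0.645) and *F3* (2.28, 0.608) did not pass either, and *F3* had 15 reads in all control BECs together.

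Whether LECs and BECs of the same mice differed in their response was tested as an interaction. *Thbd* passed, with a mutant effect 2.17 log2 units larger in LECs than in BECs (SE 0.29, adjusted p 0.0465, edgeR), as 0.187% of 21927 genes did. Its call was lost when any 1 of the 7 mice was left out, at adjusted p values of 0.0695–0.148 (edgeR), while the difference itself stayed between 1.79 and 2.51. For *Procr* (-0.89, adjusted p 0.400), *Plau* (1.54, 0.572), *Plat* (1.08, 0.351) and *Pros1* (-0.58, 0.157) a difference between the types was not detectable with edgeR. DESeq2 called *Thbd* and *Pros1* there and 5.66% of all genes. Without cells carrying markers of other types, *Procr* passed as well, with a mutant effect larger in BECs (-1.81, adjusted p 0.00953, edgeR).

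**Figure D1:**
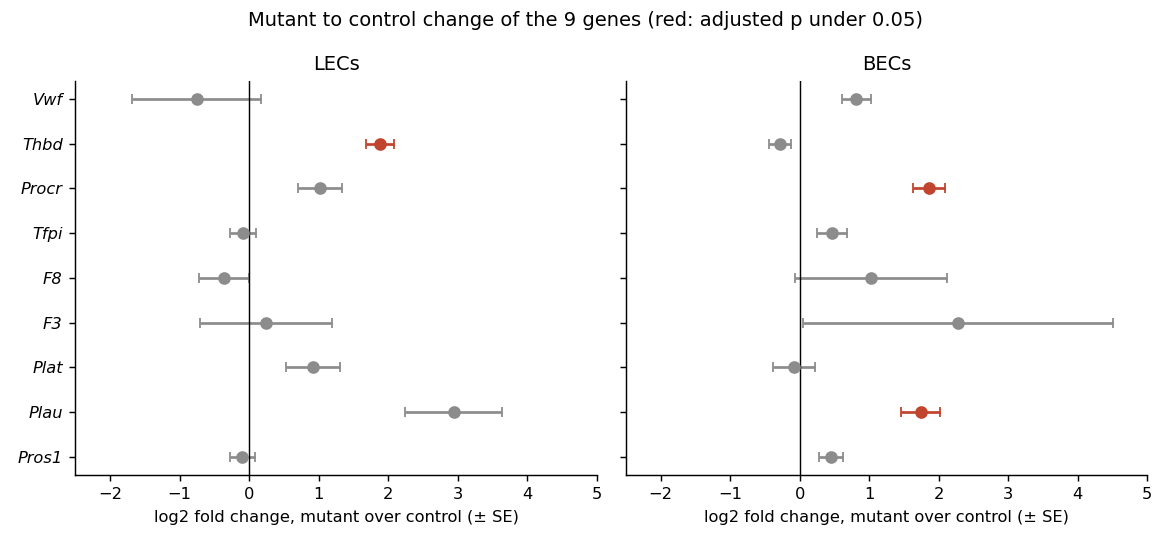
Log2 fold change between mutant and control mice (x axis) of each of the 9 genes, with bars of 1 standard error, in summed LECs and summed BECs. Red points have an adjusted p under 0.05 in edgeR, which are *Thbd* in LECs (1.88) and *Procr* (1.86) and *Plau* (1.74) in BECs.

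The *Thbd* call of LECs was kept in 18 of 22 alternatives, with log2 fold changes of 1.37–2.23, and was kept with the plate series as a block (2.11, adjusted p 0.0218, edgeR). It was lost in the plate series of the controls alone, where mutant 5 is the single mutant (2.12, adjusted p 0.215, edgeR). It was also lost in Lyve1-low LECs alone (1.37, adjusted p 0.178) and in LECs with *Ptx3* under 100 CPM (1.65, adjusted p 0.0596), both chosen after seeing the data. *Procr* of BECs kept its call in 17 of 22 (1.21–2.70) and lost it with the series as a block (2.00, adjusted p 0.0607), in the series of the controls alone (2.02, adjusted p 0.856) in BECs outside the arterial and venous gates described further on (1.61, adjusted p 0.614) and in BECs with *Apln* under 50 CPM (1.21, adjusted p 0.395). *Plau* of BECs kept its call in 11 of 22 (0.99–3.78), and lost it, among others, with the series as a block (1.42, adjusted p 0.195), without control 2 (1.46, adjusted p 0.0838) or mutant 3 (1.72, adjusted p 0.0588) and after thinning of all cells to 50000 reads (0.99, adjusted p 0.153). All of these are edgeR values. Leaving out cells with 500 CPM or more of the markers of other cell types (172 LECs and 416 BECs) kept all 3 calls, and leaving out cycling cells kept those of *Thbd* and *Procr* while *Plau* did not pass (1.36, adjusted p 0.0719, edgeR).

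The share of cells with at least 1 read was counted after each cell was thinned to 50000 reads. This share rises with the reads per cell as well as with the number of cells that hold the transcript, and does not tell them apart. *Thbd* was detected in 68.3% and 48.6% of control LECs and in 75.4–94.8% of mutant LECs. *Plau* was found in 6.6% and 16.0% of control LECs and in 35.3–67.0% of mutant LECs, and in 9.4% and 9.6% of control BECs against 32.3–38.0% of mutant BECs. *Procr* went from 40.4% and 42.9% to 57.2–86.6% in LECs, and from 35.8% and 17.2% to 52.9–76.9% in BECs. The shares of *Thbd* in BECs overlapped (83.0% and 72.0% against 73.0–82.0%). Of the 18 shares (9 genes in 2 types), 7 did not overlap between mutants and controls, those of *Tfpi* in LECs (39.3% and 41.1% against 42.4–57.8%) and *Pros1* in BECs (66.0% and 56.1% against 68.3–78.7%) included. How often shares of all other genes failed to overlap was not counted, so 7 of 18 cannot be called particular to these genes. Each of the 7 had p = 0.0952 in the two-sided exact permutation test, the smallest that 5 against 2 mice allow (adjusted 0.245 over the 18), so no share could pass 0.05. Without thinning 3 did not overlap, *Plau* in both types and *Procr* in BECs. At this depth the share of *Vwf* was 50.8% and 14.3% in control and 20.9–56.0% in mutant LECs, against 74.5–95.6% over all mice in BECs.

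*Apln* encodes apelin, which marks angiogenic and sprouting blood endothelium. BECs with at least 50 CPM of *Apln* numbered 631 of 1490, and made up 10.1% and 16.6% of control BECs but 43.7–56.1% of mutant BECs. *Apln* BECs that were not cycling made up 10.1% and 15.9% of all control BECs against 34.3–45.5% of all mutant BECs. Cycling BECs were still counted in the whole, so these shares do not describe non-cycling BECs alone. The 2 controls gave only 16 and 26 *Apln* BECs, so their values carry the larger counting error. In total 136 BECs lay within 2-fold of the limit on either side. The platelet markers stood at 1.60–3.02 CPM in *Apln* BECs of controls and at 24.7–33.1 CPM in those of mutants. In the other BECs they stood at 9.48–13.3 and 3.22–10.6 CPM.

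Within a mouse, *Apln* BECs had more *Vwf* and more *Procr* than the other BECs. *Vwf* stood at 1387 and 836 CPM in *Apln* BECs of controls and at 2520, 1624, 1782, 1719 and 1592 CPM in those of mutants. The other BECs had 981 and 660 CPM in controls and 1134, 1055, 954, 718 and 1027 CPM in mutants. This was a rise in 7 of 7 mice, of 1.27–2.39-fold, or 0.78 on the log2 scale (SE 0.11, adjusted p 0.0105, edgeR, mouse as block). *Procr* stood at 249 and 66.7 CPM in *Apln* BECs of controls and at 338, 278, 320, 371 and 393 CPM in those of mutants, against 64.2 and 52.5 CPM and 211, 78.0, 125, 87.5 and 162 CPM in the other BECs. Here too 7 of 7 mice moved one way (1.27–4.24-fold, log2 fold change 1.38, SE 0.21, adjusted p 0.0155, edgeR). The *Procr* call was lost without mutant 3, 4 or 5, at a limit of 20 CPM of *Apln* (1.25, adjusted p 0.0521, edgeR) and without cells carrying markers of other types (1.17, adjusted p 0.0638, edgeR). Without the mouse as block neither *Procr* (adjusted p 0.0991, edgeR) nor *Vwf* (adjusted p 0.0644, edgeR) passed.

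Control 2, although its *Procr* was higher in *Apln* BECs, had only 66.7 CPM of *Procr* in its *Apln* BECs, less than any mutant had in its other BECs. *Thbd* tended the opposite way. It was lower in *Apln* BECs of 6 of 7 mice (600 and 216 CPM in controls, 280, 267, 276, 254 and 229 CPM in mutants) than in the other BECs (438 and 580 CPM, and 482, 597, 429, 728 and 434 CPM). Its log2 fold change of -0.86 (SE 0.22) did not pass in edgeR (adjusted p 0.105), with control 1 as the exception, and it passed without control 1 (-1.07, adjusted p 0.0162). *Plau* was higher in *Apln* BECs of 6 of 7 mice (1.13, adjusted p 0.107) and *Plat* lower in 6 of 7 (-0.99, adjusted p 0.208, and -1.25, adjusted p 0.0493, without control 2). Without cells carrying markers of other types, *Thbd* (-1.16, adjusted p 0.0154, edgeR) and *Plat* (-1.13, adjusted p 0.0264, edgeR) passed as lower. *Tfpi* (-0.02), *Pros1* (0.19) and *F8* (0.32) were near 0 or did not pass, and *F3* was removed by the low-count filter. The 2 members that passed of 8 tested compare with 1.59% of 15457 genes, and the median of the 8 was 0.26 against -0.04 over all genes. DESeq2 called 5 of the 8 (*Vwf*, *Procr*, *Plau*, *Thbd* and *Plat*) and 8.63% of all genes.

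Blood vessels of the skin include arteries, capillaries and veins, and BECs were therefore placed in an arterial gate (*Gja5*, *Sema3g* and *Bmx* together at least 100 CPM and above the venous sum), a venous gate (*Ackr1*, *Vcam1* and *Lrg1*, the reverse) or neither. These gates are ranges of a score, not cell types. The venous gate held 859 BECs, 44.7% and 28.7% of control and 54.0–77.6% of mutant BECs, and the arterial gate 184, 17.6% and 17.2% against 9.70–13.2%. *Vwf* and *Procr* were lower in arterial-gate BECs of every mouse. *Vwf* stood at 995 and 608 CPM in the arterial gate of controls and at 945, 764, 954, 434 and 745 CPM in that of mutants. In the venous gate it stood at 1479 and 1202 CPM in controls and at 2210, 1987, 1883, 1761 and 1680 CPM in mutants, with no overlap between the gates (log2 fold change -1.09, SE 0.14, adjusted p 0.00295, edgeR, mouse as block). BECs in neither gate were lowest, at 223–590 CPM over the 7 mice.

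*Procr* was also lower in the arterial than in the venous gate of 7 of 7 mice. Arterial-gate BECs had 59.5 and 50.7 CPM in controls and 151, 50.9, 130, 71.0 and 104 CPM in mutants, and venous-gate BECs 136 and 88.4 CPM and 310, 255, 318, 352 and 334 CPM (log2 fold change -1.41, SE 0.22, adjusted p 0.00548, edgeR). Both calls were kept in all 10 alternatives run for this comparison. *Plau* (0.251–37.9 against 15.0–99.3 CPM) and *Tfpi* (1.44–68.7 against 64.5–102 CPM) were also lower in the arterial gate of 7 of 7 mice but did not pass in edgeR (adjusted p 0.0894 and 0.155). *Thbd* lay at 271–547 CPM in the arterial and 315–561 CPM in the venous gate (0.28) and was thus the least divided of the abundant members. These 2 members of 8 tested passed where 3.43% of 13449 genes did, and the median of the 8 was -1.25 against -0.16 over all genes. DESeq2 called 5 of the 8, adding *Plau*, *Tfpi* and *F8*, and 12.1% of all genes. Within the venous gate alone, *Procr* was again higher in mutants (1.53, adjusted p 0.0163, edgeR), while *Plau* did not (1.12, adjusted p 0.224, edgeR). In BECs of neither gate the mutant change of *Vwf* was -0.37 (adjusted p 0.841, edgeR).

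Among LECs, *Lyve1* marks capillary rather than collecting vessels, and 1143 of 1641 LECs had at least 1000 CPM of it. *Vwf*, though low, was lower in Lyve1-high than in Lyve1-low LECs of 7 of 7 mice. Lyve1-low LECs had 152 and 4.23 CPM in controls and 75.8, 43.6, 39.5, 12.8 and 51.4 CPM in mutants, and Lyve1-high LECs 23.4 and 3.37 CPM and 15.1, 6.08, 10.4, 4.80 and 9.33 CPM. The log2 fold change was -2.02 (SE 0.33, adjusted p 0.0128, edgeR), or 4.05-fold, and it lost its call when the limit was doubled (-1.70, adjusted p 0.0689). It was the one member of 9 to pass, against 2.52% of 15570 genes, while DESeq2 called 5 members and 9.75% of all genes. *Plau* was higher in Lyve1-high LECs of 6 of 7 mice (1.08, adjusted p 0.161, and 1.37, adjusted p 0.0264, without control 1) and *Plat* lower in 6 of 7 (-0.89, adjusted p 0.136, and -1.12, adjusted p 0.0421, without mutant 2). *Thbd* stood at 557–874 CPM in both classes of every mutant and at 161–315 CPM in both classes of the controls.

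Valve endothelium expresses *Cldn11*, and 315 LECs had at least 100 CPM of it. *Plat* was higher in these LECs of 6 of 7 mice, at 291 and 257 CPM in controls and 266, 122, 305, 190 and 385 CPM in mutants, against 97.9 and 34.8 CPM and 72.0, 138, 132, 120 and 257 CPM in the other LECs, but did not pass (log2 fold change 1.28, adjusted p 0.127, edgeR). *Pros1* was higher in 7 of 7 (0.31, adjusted p 0.140). *F3* passed as lower (-4.06, SE 0.73, adjusted p 0.0348), as 0.998% of 15426 genes did, on 0.0356–0.868 CPM against 0.989–10.4 CPM from very few cells, and it lost that call in 6 of 10 alternatives, among them those without control 1 and without mutant 2, 3, 4 or 5. DESeq2 called 4 of 9 members here (*Plat*, *Pros1*, *F8* and *F3*) and 7.67% of all genes.

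LECs with at least 100 CPM of *Ptx3* (544 cells, 6.56% and 25.1% of control and 33.2–44.1% of mutant LECs) had no member that passed, where 2.73% of 15750 genes did. *F3* was higher there in 7 of 7 mice (1.93–15.4 against 0.0406–5.02 CPM, log2 fold change 3.38, adjusted p 0.0768, edgeR) and *Vwf* was at -1.35 (adjusted p 0.0932), both of them called by DESeq2, which called 11% of all genes. *Thbd* stood at 660–955 CPM in *Ptx3* LECs and 529–734 CPM in the other LECs of mutants, while in control 1, with 12 *Ptx3* LECs, it was 55.1 against 245 CPM. Without control 1, *Thbd* (0.44), *Procr* (0.47), *F3* (3.79) and *Plau* (1.36) passed as higher in *Ptx3* LECs, at adjusted p values of 0.0196–0.0494 (edgeR). The gate on *Ptn* and *Plvap* took in 1343 of 1641 LECs and so set apart few cells. A *Thbd*-rich cluster was known from earlier results of these data when this gate was chosen. The direction of *Thbd* is therefore a description and no independent support. *Thbd* and *Procr* were higher inside the gate in 7 of 7 mice (0.55 and 0.60, adjusted p 0.164 and 0.281, edgeR). In edgeR 0 of 15914 genes passed (1141 at an unadjusted p under 0.05), while DESeq2 called 428 (2.69%), *Thbd* and *Procr* included.

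**Figure D2:**
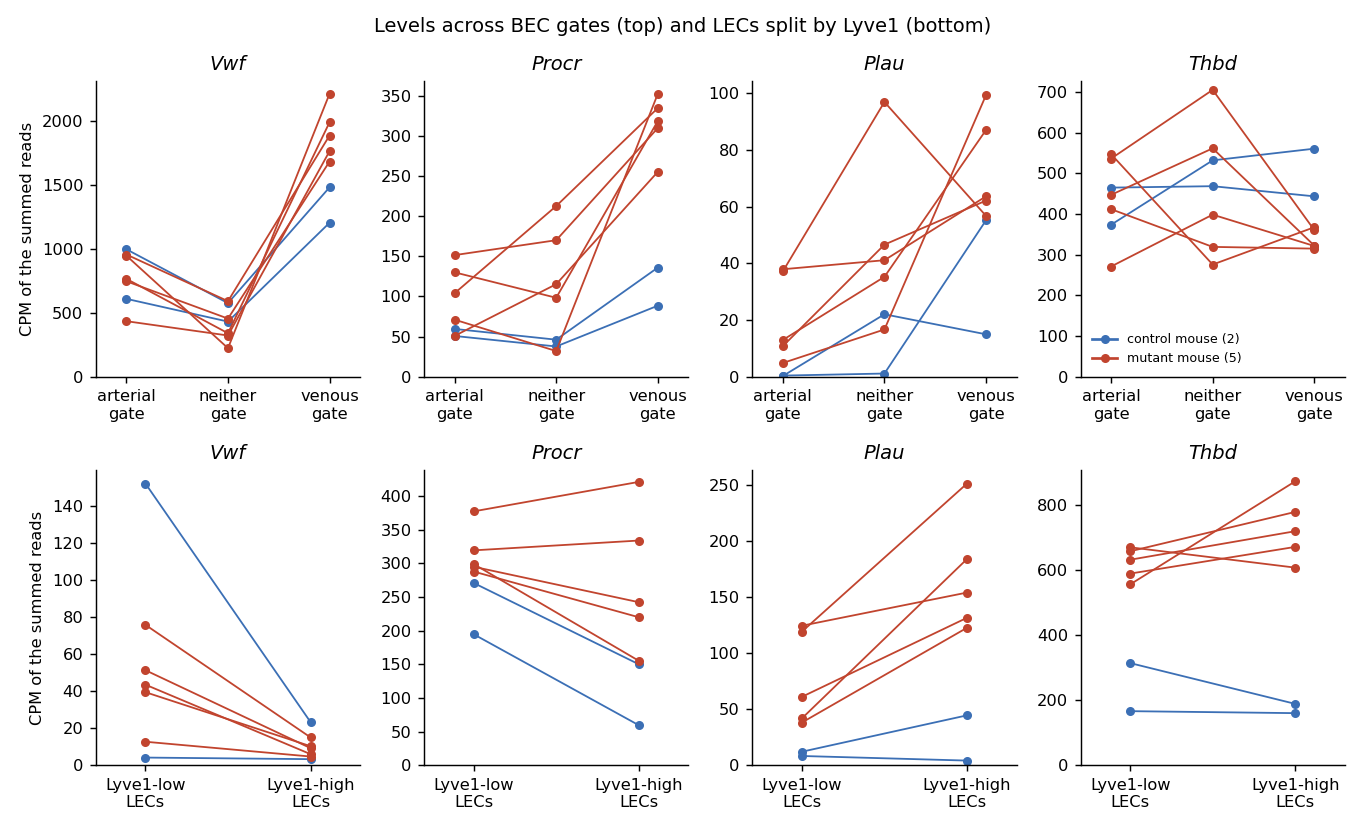
Level in CPM (y axes) per mouse, as lines over 2 control and 5 mutant mice. The top row gives *Vwf*, *Procr*, *Plau* and *Thbd* in BECs of the arterial gate, of neither gate and of the venous gate, where *Vwf* lies at 434–995 CPM in the arterial and 1202–2210 CPM in the venous gate. The bottom row gives the same genes in Lyve1-low and Lyve1-high LECs, where *Vwf* is lower in Lyve1-high LECs of 7 of 7 mice.

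Beyond the 9 genes, 61 further haemostasis genes in 5 lists were counted in the same fits. In LECs none of 44 tested passed between genotypes, where 2.76% of all genes did. In BECs 2 of 45 passed, both higher in mutants, where 2.12% of all genes did. *Selp* encodes P-selectin, which is stored with von Willebrand factor in Weibel-Palade bodies and binds leukocytes. *Selp* rose from 143 and 103 CPM in control BECs to 662, 521, 738, 596 and 415 CPM in mutant BECs (log2 fold change 2.31, SE 0.27, adjusted p 0.00773, edgeR), or 4.98-fold, and 14.1% of its exon sequence is shared with predicted genes. *F5*, coagulation factor V, named after its values were seen, stood at 0.0217 and 0 CPM in control BECs and at 8.15, 10.99, 4.59, 8.43 and 2.68 CPM in mutant BECs (adjusted p 0.0138, edgeR). No fold is given for *F5* because the control BECs together held a single read.

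Between LECs and BECs, 20 of 40 tested list genes passed, 12 higher and 8 lower in LECs, where 25.9% of all 17587 genes tested passed. All 4 platelet restraint genes were lower in LECs (*Entpd1*, *Nt5e*, *Nos3* and *Ptgis*, median log2 fold change -3.93), with *Entpd1*, which degrades ADP and ATP, at -6.27 (SE 0.46, adjusted p 1.54e-05) and *Nt5e*, which makes adenosine, at -4.35 (adjusted p 1.74e-05). *Nos3* shares 32.3% of its exon sequence with *Atg9b*. Of 10 fibrinolysis genes tested, 4 were higher in LECs and none lower. These were *Anxa2* and *S100a10*, a receptor pair for plasminogen and *Plat*, the urokinase receptor *Plaur*, and the protease inhibitor *Serpine2* (3.09, adjusted p 1.23e-05). The scavenger receptor *Stab2* (6.30) and the protease-activated receptor *F2rl1* (2.16, adjusted p 0.0382) were higher in LECs, and *Selp* lower (-6.48, adjusted p 1.41e-05). All are edgeR values with the mouse as block.

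In *Apln* BECs, 3 of 38 list genes passed, where 1.59% of all genes did. They were *Entpd1* (0.50, adjusted p 0.0207) and *F5*, which were higher, and *Lrp1*, a clearance receptor, which was lower. Arterial-gate BECs had less *Selp* (-5.08, adjusted p 0.00408), *Nt5e* (-5.59, adjusted p 0.0302) and *Stab1* (-0.91, adjusted p 0.0351) and more *Mcfd2* (0.97, adjusted p 0.0237), whose product carries factors V and VIII out of the endoplasmic reticulum, among 36 tested, where 3.43% of all genes passed. Lyve1-high LECs had less *Serpine2* (-0.94, adjusted p 0.00351) and *Mmrn2* (-1.05, adjusted p 0.0445) and more *Gas6* (0.38, adjusted p 0.0114), a relative of protein S, among 38 tested, where 2.52% of all genes passed. *Serpine2* (-1.68) and *Mmrn2* (-1.73) were also lower in *Ptx3* LECs, where *Stab2* was higher (4.15, adjusted p 0.0135), among 37 tested and with 2.73% of all genes passing. In valve-gate LECs no list gene passed of 37 tested (0.998% of all genes). Each of these values comes from edgeR.

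Transcription factors known to act on these genes were counted as well. Of 6 (*Klf2*, *Klf4*, *Egr1*, *Erg*, *Gata2* and *Gata6*), only *Egr1* passed between genotypes. *Egr1* fell from 326 and 276 CPM in control LECs to 29.5–63.9 CPM in mutant LECs (-2.78, adjusted p 0.00392, edgeR) and from 525 and 721 CPM to 123–235 CPM in BECs (-1.74, adjusted p 0.0103, edgeR). *Egr1* is also a dissociation gene, and 3 of 8 genes of that list fell in each type, among them *Junb* (-2.28, adjusted p 0.0318, in LECs and -1.55, adjusted p 0.0267, in BECs, edgeR). *Klf2*, a shear-stress factor that acts on *Thbd*, stood at 177 and 82.0 CPM in control LECs and 95.04–225 CPM in mutant LECs, and did not pass.

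Finally, the genes whose levels ran most like each member from cell to cell were listed, in the type where the member was higher. The measure was Pearson's r of log2(CPM + 10), averaged over the 7 mice. Cells of one mouse share the animal and are no replicates. They differ in read depth, whose part in r was not tested. For *Vwf* over 1490 BECs these were *Plvap* (mean r 0.580, 0.414–0.707 over mice), *Lrg1* (0.552) and *Spint2* (0.543), of which *Lrg1* is a venous gate gene and *Plvap* forms the diaphragms of fenestrae and caveolae. Over 1641 LECs, *Procr* was nearest to *Olfml2a* (0.346), *Sparc* (0.332) and *Slco2a1* (0.326). *Plau* was nearest to AA467197 (0.365), the chemokine gene *Ccl2* (0.352) and *Mir147* (0.342), and *Thbd* to *Slfn2* (0.307), *Nrp2* (0.260) and *Aebp1* (0.260). *Plat* reached 0.197 with *Fxyd2*, *Pros1* 0.165 with *Fcgrt*, and *Tfpi* and *F8* 0.125 or less with any gene, which in sparse counts is weak. *F3* had reads in 4.33% of LECs, too few for a likeness to be read. Among the members themselves, *Vwf* and *Procr* gave the highest mean in BECs (0.337, 0.113–0.543, above 0 in 7 of 7 mice), and *Thbd* and *Procr* in LECs (0.221).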

How the data were processed

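Per the labels and the methods, the authors aligned Smart-Seq2 reads to GRCm38 with TopHat2 2.1.1, removed duplicates with SAMtools 0.1.18 and deposited raw counts per gene and well made with featureCounts (Subread). Their notes also name R 3.5.1 and Seurat 3.1.1, and the annotation version is not given in the sources used here. The Wilson intervals treat the cells of a mouse as independent draws and so cover counting error only. No molecular identifiers were used. Removing duplicates without such identifiers caps the counts of short, abundant transcripts.

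All 3456 count columns (7 mice) were used. Cells were kept with 200 or more genes, 50000 or more reads and a mitochondrial share of 10% or less. No wells held identical counts. Counts were summed per mouse and cell class (at least 5 cells), filtered with filterByExpr, scaled with TMM and tested with edgeR 4.0.16 (quasi-likelihood) in R 4.3.3, with Benjamini-Hochberg adjustment over all genes tested and a call at an adjusted p under 0.05. SE is the log2 fold change divided by the root of F. Classes of one mouse were compared with the mouse as block, and the genes that defined a class were left out. DESeq2 1.42.0, other scaling, filters, cell sets, blocks and mice left out were alternatives. CPM are plain summed counts over the total count of the sum. The scripts were tested on simulated data. Symbols came from GENCODE (46005 of 46517 genes). Shares used an exact permutation test over the 21 splits of 7 mice. Python 3.11.15, NumPy 2.4.6, SciPy 1.17.1, pandas 2.3.3, limma 3.58.1 and Matplotlib 3.10.9 were also used.

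The members, gene lists, classes and tests were chosen with earlier results of these data known. All 9 members were named in each comparison, from the other lists the 3 genes with the largest change in each direction among called genes whose mean log2 CPM reached 3, and per member the 3 genes most like it across cells among genes with a read in at least 5% of them. *F5*, *Lrp1*, *Nos3*, *Ptgis*, *Anxa2*, *S100a10*, *Plaur*, *Egr1*, *Junb* and *Klf2* lie outside this rule and were named after their values were seen. The authors' cell clusters were not used, and mice share only their replicate number, which pairs nothing.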

Additional observations from a re-analysis of the deposited data

Results flagged for a closer look

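Of 36 groups of 5 mutant mice examined with Dixon's criterion (critical value 0.71), 5 held a mouse far from the others, where chance gives about 1 in 20. *Plat* in LECs was 275 CPM in mutant 5 and 172 CPM in the next mouse. *F3* in BECs was 3.51 CPM in mutant 2 and 0.201 CPM in the next, and in *Apln* BECs 5.19 and 0.0836 CPM in the same order. *Vwf* in *Apln* BECs was 2519.6 CPM in mutant 1 and 1782 CPM in the next, and *Plau* in the other BECs was 93.4 CPM in mutant 1 and 41.9 CPM in the next.

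The mutant effect on *Thbd* was 2.17 log2 units larger in LECs than in BECs by an interaction test (adjusted p 0.0465, edgeR), a call lost when any 1 mouse was left out.

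In the 117 cells that were neither LEC nor BEC, which entered no comparison, *Plau* was at 3.68 CPM in the lowest mutant and at 1.19 CPM in the higher control.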

How the results depend on the processing

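Of 1289 combinations of a member and an alternative setting, 1118 kept direction and side of the threshold, 56 lost their call, 41 gained one and 74 changed sign. The replicate numbers of the labels are only numbers here, since same-numbered mice did not deviate together (r -0.041 and 0.036 in LECs, 0.022 and 0.093 in BECs). Values below are log2 fold changes unless named as counts of genes, and causes were not tested. Restrictions to *Lyve1*, *Ptx3*, *Apln* or venous classes were chosen after seeing the data. 

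With DESeq2 in place of edgeR, 2472 genes and 3 members passed for mutant against control LECs, 2238 genes passed for mutant against control BECs and 1240 genes and 2 members passed for the interaction. Under the same setting, 1334 genes and 5 members passed while *Tfpi* became 0.0043 for *Apln* BECs, 1627 genes and 5 members passed for the arterial against the venous gate and 1183 genes and 4 members passed for valve-gate LECs. Under the same setting, 428 genes and 2 members passed for the *Ptn* and *Plvap* gate, 1518 genes and 5 members passed for Lyve1-high LECs and 1732 genes and 2 members passed for *Ptx3* LECs. With the replicate block, 3 genes and 0 members passed while *Vwf* became 0.86 for mutant against control LECs and 0 genes and 0 members passed (2710 genes at an unadjusted p under 0.05) for mutant against control BECs. The calls lost under this replicate block were those of *Thbd* in LECs (1.80, adjusted p 0.123) and of *Procr* (1.83, adjusted p 0.151) and *Plau* (1.85, adjusted p 0.220) in BECs. With the plate series as a block, 178 genes passed while *F3* became -0.44 for mutant against control LECs and 54 genes and 0 members passed while *Plat* became 0.10 for mutant against control BECs. In the plate series of the controls alone, 3 genes and 0 members passed while *F3* became -0.43 for mutant against control LECs and 0 genes and 0 members passed (1090 genes at an unadjusted p under 0.05) while *Plat* became 0.12 for mutant against control BECs. Without cycling cells, 37 genes passed while *F3* became -1.80 and *Pros1* became 0.028 for mutant against control LECs, 221 genes and 1 member passed for mutant against control BECs and 16 genes and 0 members passed while *F3* became -0.78 for the interaction. Under the same setting, *Tfpi* became 0.050 and *F8* became -0.11 for *Apln* BECs. With cells thinned to 50000 reads, 2 members passed while *F3* became -0.34 for mutant against control LECs, 1 member passed for mutant against control BECs and 0 members passed for the interaction. With the leading marker sum at least 5 times the other, *F3* became -0.34 for mutant against control LECs, 1 member passed for mutant against control BECs and 67 genes passed for the interaction. In Lyve1-high LECs alone, 2 members passed for mutant against control LECs. In Lyve1-low LECs alone, 2 genes and 0 members passed while *Tfpi* became 0.32, *F3* became -5.54 and *Pros1* became 0.013 for mutant against control LECs. In LECs with *Ptx3* under 100 CPM alone, 10 genes and 0 members passed while *F3* became -1.05 for mutant against control LECs. Without cells carrying markers of other types, 790 genes passed for mutant against control BECs, 171 genes and 2 members (*Thbd* and *Procr*) passed while *Plau* became -1.30 for the interaction and 157 genes passed while *Tfpi* became 0.14 for *Apln* BECs. In BECs with *Apln* under 50 CPM alone, 1 gene and 0 members passed while *Thbd* became 0.10 and *Plat* became 0.31 for mutant against control BECs. In venous-gate BECs alone, 1 member passed while *Tfpi* became -0.095 for mutant against control BECs. In BECs of neither gate alone, 0 genes and 0 members passed (1254 genes at an unadjusted p under 0.05) while *Vwf* became -0.37, *F8* became -0.41 and *Plat* became 0.93 for mutant against control BECs. With first plates only, 0 members passed for the interaction and *Tfpi* became 0.078 for *Apln* BECs. In control mice alone, 648 genes and 0 members passed while *Thbd* became -1.33 and *Plau* became -0.51 for LECs against BECs. With DESeq2 size factors in edgeR, *Tfpi* became 0.0032 for *Apln* BECs. With no replicate block, 102 genes and 0 members passed for *Apln* BECs. In cells with at least 100000 reads, *Tfpi* became 0.0071 for *Apln* BECs. At an *Apln* limit of 20 CPM, 105 genes and 1 member passed for *Apln* BECs. At an *Apln* limit of 200 CPM, *Tfpi* became 0.086 for *Apln* BECs. Without the low-count filter, 0 members passed while *Tfpi* became -0.037 for valve-gate LECs and *Pros1* became 0.035 for Lyve1-high LECs. With the gate limit doubled, *Tfpi* became -0.021 for valve-gate LECs, 6 genes passed for the *Ptn* and *Plvap* gate and 253 genes and 0 members passed while *Pros1* became 0.17 for Lyve1-high LECs. Without thinning, 3 of 18 shares did not overlap between genotypes.

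With each mouse left out in turn, for mutant against control LECs the genes that passed numbered 153–546, the members 1–2, *Vwf* ran from -1.67 to 2.60, *Tfpi* ran from -0.21 to 0.066, *F8* ran from -0.68 to 0.084, *F3* ran from -0.46 to 1.70 and *Pros1* ran from -0.23 to 0.081. For mutant against control BECs the genes that passed numbered 159–586, the members 1–2, *F3* ran from -0.75 to 3.05 and *Plat* ran from -0.20 to 0.054. For the interaction the genes that passed numbered 0–20, the members 0–0, *Vwf* ran from -2.504 to 1.16, *F8* ran from -5.50 to 0.065, *F3* ran from -0.59 to 0.93 and *Plau* ran from -0.034 to 3.11. For *Apln* BECs the genes that passed numbered 67–428, the members 1–3, *Tfpi* ran from -0.16 to 0.075 and *F8* ran from -0.21 to 0.93. For the arterial against the venous gate the genes that passed numbered 248–382 and *Plat* ran from -0.78 to 0.11. For valve-gate LECs the genes that passed numbered 69–160, the members 0–1 and *Tfpi* ran from -0.031 to 0.089. For the *Ptn* and *Plvap* gate the genes that passed numbered 0–1, *F3* ran from -0.93 to 0.56 and *Plau* ran from -0.51 to 0.016. For Lyve1-high LECs the genes that passed numbered 213–403, the members 1–2, *Thbd* ran from -0.031 to 0.19, *F8* ran from -0.18 to 0.29 and *Pros1* ran from -0.069 to 0.040. For *Ptx3* LECs the genes that passed numbered 166–834, the members 0–4, *Tfpi* ran from -0.11 to 0.11 and *F8* ran from -0.24 to 0.42. Precision is limited by the 2 control mice, 1 of them untreated, and by the 16 and 26 *Apln* BECs they gave.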

Other observations

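In the cells that were neither LEC nor BEC (50 from control and 67 from mutant mice), *F3* stood at 41.7 and 121 CPM in controls 1 and 2, at 0.468 CPM in mutant 4 and at 0 in mutants 1, 2, 3 and 5. *Plau* in these cells stood at 1.19 and 0.579 CPM in controls and at 3.68, 5.44, 50.8, 72.5 and 3.81 CPM in mutants 1 to 5, from 3 cells in mutant 2 to 22 in mutant 5. Levels of *F3* above those of any endothelial class of these mice thus lay outside LECs and BECs, in control mice.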
